A study of Mus musculus with 4 samples.

Results

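The genes described here are 35 genes of mitosis and of the G2/M transition, chosen by symbol from the 21044 genes of the deposited FPKM table, with kinesins left out except Cenpe. All 35 were found in that table, all 35 had read counts in every library, and all 35 passed the filter on low counts that left 13086 genes for testing. The RNA came from microglia, the resident macrophages of the brain, of the corpus callosum, the large white matter tract between the hemispheres, taken from mice at postnatal day 7. Of the 4 RNA-seq libraries, 2 are from Lag3fl/fl mice (genotype label wt, called WT here) and 2 are from Lag3cKO-Cx3 mice (genotype label ko, called cKO here), in which floxed Lag3 is deleted through a Cx3cr1 driver. Lag3 encodes an inhibitory immune receptor, and the study asked what its loss does to white matter microglia early after birth. Cx3cr1 is used by microglia and also by other myeloid cells, so the driver is not limited to microglia. How many animals stand behind a library, whether WT mice carry the driver, and the sex of the mice are not given in the labels. The p-values therefore measure the spread between these libraries, which may be technical.

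Cells enter mitosis when cyclin B and the kinase CDK1 become active. They leave it when the anaphase-promoting complex marks cyclin B and securin for destruction. In between, kinetochores attach chromosomes to the spindle, the spindle assembly checkpoint holds anaphase back, and the chromosomal passenger complex corrects faulty attachments and then helps to direct cytokinesis. Transcripts of most of these proteins are scarce in resting cells and accumulate late in the cycle, so their sum in bulk RNA depends on how many cells divide. Microglia of the early postnatal white matter divide, whereas adult microglia renew slowly. In bulk samples, fewer cycling cells and less RNA per cycling cell cannot be told apart.

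Many genes of this group share a promoter layout, shown here because the members are known to be transcribed together. It pairs CCAAT boxes, bound by NF-Y, with a cell cycle homology region (CHR), whose letters are TTTGAA and which is bound by the DREAM and MuvB complexes. RefSeq promoter windows (GRCm38.p6, 250 bases before to 50 after the annotated start) were at hand for 29 of the 35 members. Both motifs were searched on both strands, and 1 pair of matches in the members' windows shared a base. TTTGAA was found for 22 of the 29 members (75.9%), against 20.2% of the 27025 genes in the RefSeq table and 11.8% of 17 genes of DNA replication. CCAAT was found for 23 of the 29 (79.3%), against 41.1% of all genes and 64.7% of the replication genes. Both stood in the same window for 20 of the 29 (69.0%), against 7.97% of all genes and 11.8% of the replication genes. The TTTGAA began between 40 bases before and 50 bases after the start for 21 of the 29 members, against 5.10% of all genes and 5.88% of the replication genes. Birc5, Mad2l1, Nuf2 and Nusap1 had no match to either motif in the window. The 150 bases before the start are printed for 6 members, 5′ to 3′ on the gene's strand, with matches in capitals (ATTGG and TTCAAA are the same motifs on the other strand). Cdk1 and Ccnb1 encode the partners of the mitotic kinase, Cdc20, Prc1 and Top2a stand for anaphase, cytokinesis and chromosome structure, and Hmgb2 had the smallest p of the group. For Prc1 the second annotated start was used.
Cdk1, chr10:69352913-69353062, minus strand: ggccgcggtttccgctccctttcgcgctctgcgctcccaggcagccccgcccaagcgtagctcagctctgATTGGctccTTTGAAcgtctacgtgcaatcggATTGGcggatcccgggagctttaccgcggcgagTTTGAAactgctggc
Ccnb1, chr13:100786487-100786636, minus strand: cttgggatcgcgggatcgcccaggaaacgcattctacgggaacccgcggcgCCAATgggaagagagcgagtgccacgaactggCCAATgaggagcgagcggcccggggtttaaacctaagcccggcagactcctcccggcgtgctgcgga
Cdc20, chr4:118437344-118437493, minus strand: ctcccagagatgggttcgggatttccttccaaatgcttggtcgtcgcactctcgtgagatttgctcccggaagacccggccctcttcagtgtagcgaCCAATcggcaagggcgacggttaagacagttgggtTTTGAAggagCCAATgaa
Prc1, chr7:80294326-80294475, plus strand: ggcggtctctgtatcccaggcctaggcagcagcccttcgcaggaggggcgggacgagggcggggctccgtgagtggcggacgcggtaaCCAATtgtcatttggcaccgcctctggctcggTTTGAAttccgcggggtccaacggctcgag
Top2a, chr11:99024190-99024339, minus strand: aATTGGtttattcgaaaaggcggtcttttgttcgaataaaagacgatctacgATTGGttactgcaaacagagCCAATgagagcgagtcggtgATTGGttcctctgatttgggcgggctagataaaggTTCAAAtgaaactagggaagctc
Hmgb2, chr8:57511693-57511842, plus strand: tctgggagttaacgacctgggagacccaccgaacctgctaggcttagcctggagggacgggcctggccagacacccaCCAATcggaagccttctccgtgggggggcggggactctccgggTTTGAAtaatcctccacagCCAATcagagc
In 5 of these 6 stretches at least 1 TTTGAA and at least 1 CCAAT are present, and the Ccnb1 stretch holds 2 CCAAT and no TTTGAA. For Prc1 this rests on the second start. A match is a description of the letters, and binding was not measured.

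**Figure D1:**
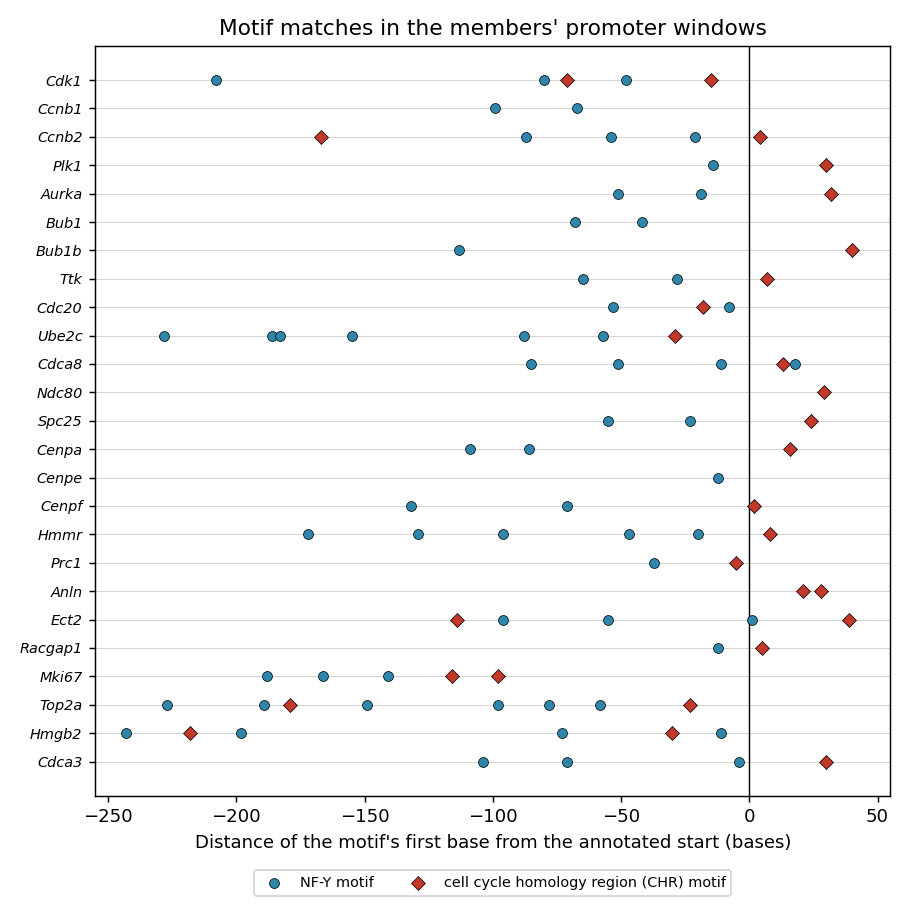
Positions of motif matches in the promoter windows of the 25 members that have at least 1 match. The horizontal axis gives the distance in bases of the match's first base from the annotated start (0), circles are NF-Y motifs and diamonds are CHR motifs. Most CHR matches lie within 40 bases before to 50 bases after the start, and most NF-Y matches lie before it.

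Total counts were 14645187 to 16770162 per library, and the members' counts ran from 94 for Ttk in cKO replicate 1 to 3525 for Top2a in cKO replicate 2, so that counting error alone was at most 10.3% of a value. The targeted gene, Lag3, was at 387 and 683 CPM in WT and at 35.4 and 17.1 CPM in cKO (CPM here are counts relative to the TMM-scaled library size). The microglial markers of a 13-gene list were detected in all 4 libraries, at a sum of 34100 to 38610 CPM. The second cKO library stood apart: its log2 CPM correlated with the others at 0.783 to 0.802 across genes, against 0.872 to 0.910 among the other 3 libraries. It had a count for 12787 genes, against 14840 to 15899 in the other libraries, and how far this shifts its values was not tested. It also had 0 CPM of the Y-linked gene Ddx3y and 290.4 CPM of Xist. The WT libraries had 94.7 and 89.1 CPM of Ddx3y and no Xist, and cKO replicate 1 had 106.9 and 6.97 CPM of them. The part of sex in the differences of cKO replicate 2 from the other libraries was not tested. Cx3cr1, whose driver the cKO mice carry, was at 6443 and 6554 CPM in WT and at 3404 and 3034 CPM in cKO. Fold changes are therefore also given without the second cKO library for part of the genes. Where no such value is given, the fold change may still move by more than 1.5 times. For Lin54, a gene outside the group, the log2 fold change moved from 1.63 to 0.29.

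The WT libraries agreed closely in mitotic transcripts, and cKO replicate 2 held more of them. The 35 members summed to 2059 and 2058 CPM in WT replicates 1 and 2, and to 2307 and 3445 CPM in cKO replicates 1 and 2. This is 1.12 times the WT mean in the first cKO library and 1.67 times in the second. WT replicates 1 and 2 were more than 1.5-fold apart for 1 of the 35 members, where 22.7% of the 9426 genes with a mean of at least 5 CPM were. The cKO libraries were more than 1.5-fold apart for 21 members, against 50.9% of these genes, and cKO replicate 2 was the higher one for 20 of the 21. In all, cKO replicate 2 exceeded replicate 1 for 31 members (44.9% of all genes tested and 48.5% of those with a mean of at least 5 CPM), and WT replicate 1 exceeded replicate 2 for 16 (49.1% and 49.6%).

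In the fit of cKO against WT, 29 of the 35 members were fitted higher, where 48.2% of the 13086 genes tested were. Their median log2 fold change was 0.49, with a range of -0.54 for Incenp to 1.08 for Aurkb, and the median of all genes tested was -0.03. Both cKO libraries lay above both WT libraries for 19 members (15.8% of all genes tested, 17.1% of those with a mean of at least 5 CPM), and both lay below for 0 members (20.0% and 19.1%). Taken singly, cKO replicate 2 was above both WT libraries for 29 members (36.7% and 39.6%) and cKO replicate 1 for 20 (36.0% and 35.5%). Below both WT libraries were 10 members in cKO replicate 1 (37.0% and 38.0%) and only Incenp in cKO replicate 2 (45.6% and 43.9%). No member passed edgeR's quasi-likelihood test at an adjusted p under 0.05, nor did any other gene (0.0%), and the adjusted p was 0.9997 for each member. The deleted gene, Lag3, did not pass either (log2 fold change -4.35, edgeR adjusted p = 0.9997). Not passing this test therefore says little about a member. At an unadjusted p under 0.05 by edgeR there were 5 members (Hmgb2, Prc1, Cenpe, Hmmr and Cdca3), all fitted higher, against 4.65% of all genes tested in either direction (608 genes) and 1.77% higher. DESeq2 called 0 members and 52 (0.387%) of the 13448 genes to which it gave an adjusted p, the lowest among members being 0.325 for Cenpe. Without cKO replicate 2 the members' median was 0.19 and 22 were fitted higher (48.7% of all genes tested). Without cKO replicate 1 the median was 0.83 and 34 were fitted higher (44.2%), while the median of all genes tested was -0.15. That fit takes the spread of the 1 cKO library left to be that of WT. In it edgeR called Aurkb, Ccnb1 and Cdca8 higher, with adjusted p = 0.0367, 0.0399 and 0.0477, beside 5.72% of all genes tested in either direction and 0.81% higher.

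**Figure D2:**
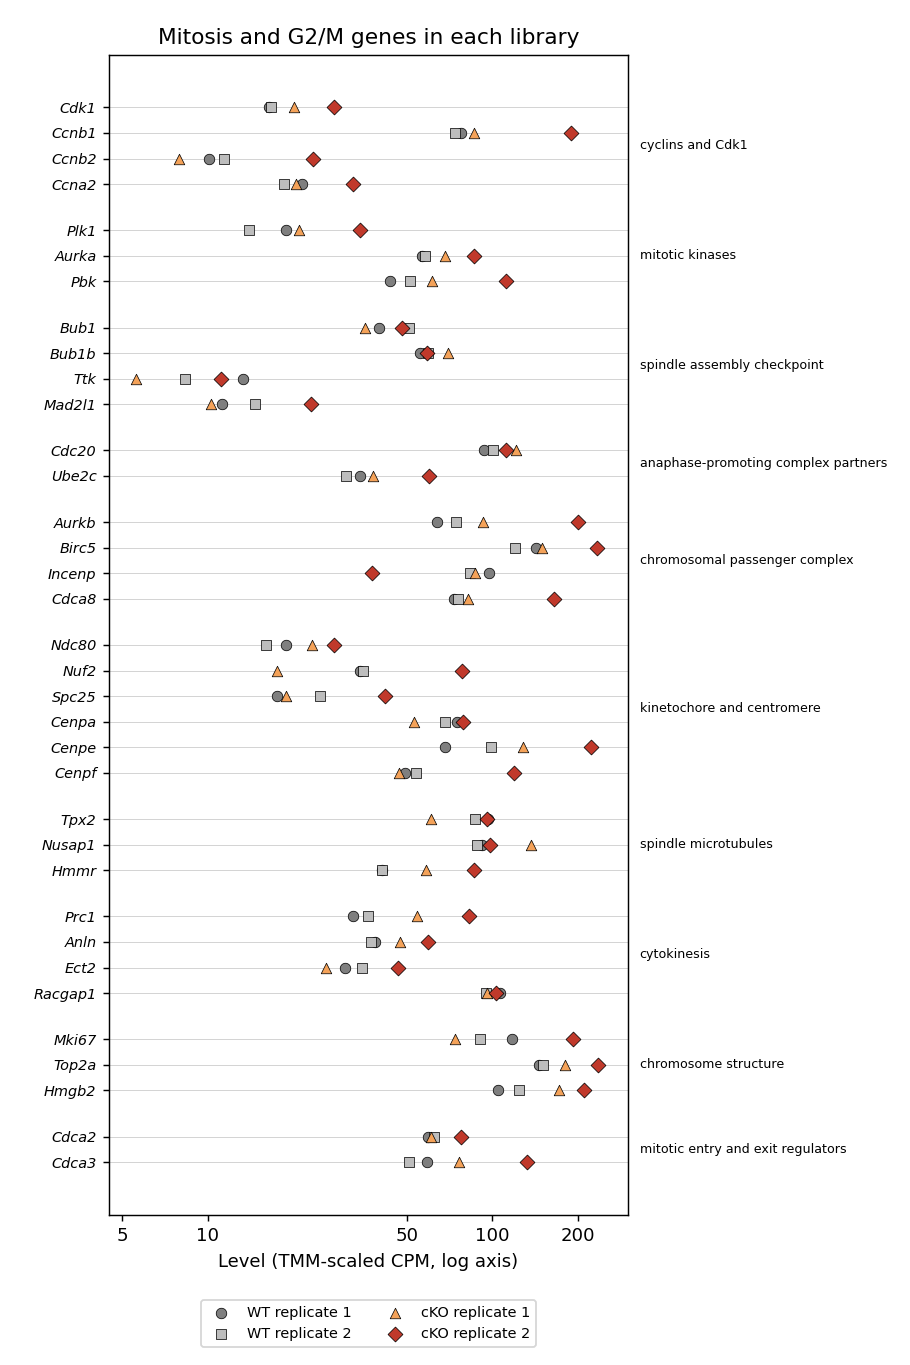
Level of each member in each library, in TMM-scaled CPM on a log axis, with members grouped by role; circles and squares are WT replicates 1 and 2, triangles and diamonds cKO replicates 1 and 2. The WT symbols lie close together for most members, the diamonds lie farthest right for most, and Incenp has its diamond farthest left.

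Cyclins and Cdk1 were fitted higher in cKO for 4 of 4 genes, with a median log2 fold change of 0.54 that was 0.11 without cKO replicate 2. Cdk1, the kinase that drives entry into mitosis, was at 16.5 and 16.7 CPM in WT and at 20.1 and 27.7 CPM in cKO. Ccnb1, its main cyclin partner, was at 77.6 and 73.9 CPM in WT and at 86.0 and 189.1 CPM in cKO (log2 fold change 0.86, standard error, SE, 0.42; 0.18 without cKO replicate 2). For these 2 genes both cKO libraries were above WT, and for Ccnb1 most of the difference lay in cKO replicate 2, at 2.50 times the WT mean against 1.14 times in replicate 1. Near-identical copies of Ccnb1 are annotated (Ccnb1-ps, Gm12856 and Gm8416), and reads may be split between them; the copies with counts had at most 53 counts in a library. The other B-type cyclin of the group, Ccnb2, was at 10.1 and 11.4 CPM in WT and at 7.92 and 23.5 CPM in cKO, so the cKO libraries lay on either side of WT. Ccna2, the cyclin of S phase and G2, was at 21.5 and 18.5 CPM in WT and at 20.4 and 32.5 CPM in cKO, and the groups overlapped.

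The 3 mitotic kinases of the group that belong to no complex named here lay above WT in both cKO libraries, and their median log2 fold change was 0.75, or 0.35 without cKO replicate 2. Plk1, which acts in centrosome maturation, kinetochore function and cytokinesis, was at 18.8 and 13.9 CPM in WT and at 20.9 and 34.3 CPM in cKO. Aurka, the kinase of centrosomes and spindle poles, was at 56.8 and 58.0 CPM in WT and at 68.3 and 86.1 CPM in cKO. For Pbk, a mitotic kinase also known as TOPK, the values were 43.9 and 51.6 CPM in WT and 61.5 and 111.5 CPM in cKO (log2 fold change 0.86, SE 0.37, and 0.36 without cKO replicate 2). In each of the 3, cKO replicate 2 was the highest library, at 1.5 to 2.34 times the WT mean.

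The 4 genes of the spindle assembly checkpoint had a median of 0.02 on the log2 scale, 2 fitted higher and 2 lower, and in all 4 the cKO libraries overlapped WT. Without cKO replicate 2 the median was -0.34 with 1 of 4 higher, and without cKO replicate 1 it was 0.06 with 4 of 4 higher. Bub1, a kinase of the kinetochore, was at 40.1 and 50.9 CPM in WT and at 35.7 and 48.3 CPM in cKO. Bub1b, which encodes the checkpoint protein BUBR1, was at 55.9 and 59.5 CPM in WT and at 69.9 and 59.1 CPM in cKO. Ttk, which encodes the kinase MPS1 that starts checkpoint signalling, had the lowest counts of the group and was at 13.3 and 8.33 CPM in WT and at 5.60 and 11.1 CPM in cKO. Mad2l1, which encodes the MAD2 protein that holds back CDC20, was at 11.2 and 14.6 CPM in WT and at 10.3 and 23.1 CPM in cKO, the only checkpoint gene above both WT libraries in cKO replicate 2. In cKO replicate 1, 3 of the 4 genes were below both WT libraries and only Bub1b was above.

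Cdc20 and Ube2c, the activator and the ubiquitin-conjugating enzyme of the anaphase-promoting complex, were above WT in both cKO libraries. Cdc20 was at 93.6 and 100.3 CPM in WT and at 121.4 and 111.5 CPM in cKO (log2 fold change 0.26, SE 0.20). With Bub1b, Incenp and Nusap1 it was among the 4 members that were higher in cKO replicate 1 than in replicate 2, and its fold change (log2) was 0.32 without replicate 2. Ube2c was at 34.3 and 30.6 CPM in WT and at 38.0 and 60.1 CPM in cKO.

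The chromosomal passenger complex joins the kinase Aurora B (Aurkb) to survivin (Birc5), borealin (Cdca8) and the scaffold INCENP (Incenp). Aurkb was at 64.0 and 74.5 CPM in WT and at 93.0 and 200.4 CPM in cKO (log2 fold change 1.08, SE 0.42), at 1.34 and 2.89 times the WT mean, and its log2 fold change was 0.42 without cKO replicate 2. Cdca8 was at 73.2 and 75.6 CPM in WT and at 82.1 and 164.9 CPM in cKO, and Birc5 was at 142.3 and 120.0 CPM in WT and at 149.5 and 233.8 CPM in cKO. Their log2 fold changes of 0.73 and 0.55 became 0.14 and 0.19 without cKO replicate 2. These 3 genes had both cKO libraries above WT. Incenp was at 97.3 and 83.4 CPM in WT and at 86.8 and 37.7 CPM in cKO (log2 fold change -0.54, SE 0.45, and -0.06 without cKO replicate 2). In cKO replicate 2 it thus stood at 0.418 times the WT mean, in the same library in which Aurkb, Cdca8 and Birc5 stood at 2.89, 2.22 and 1.78 times, and at 0.961 times in the other cKO library. On the length-corrected FPKM scale, Incenp (27.6 ± 3.20, SD, n = 2) and Aurkb (23.1 ± 2.32, SD, n = 2) were the members at places 4 and 6 in WT, and in cKO replicate 2 they were at 12.01 and 69.7 FPKM.

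**Figure D3:**
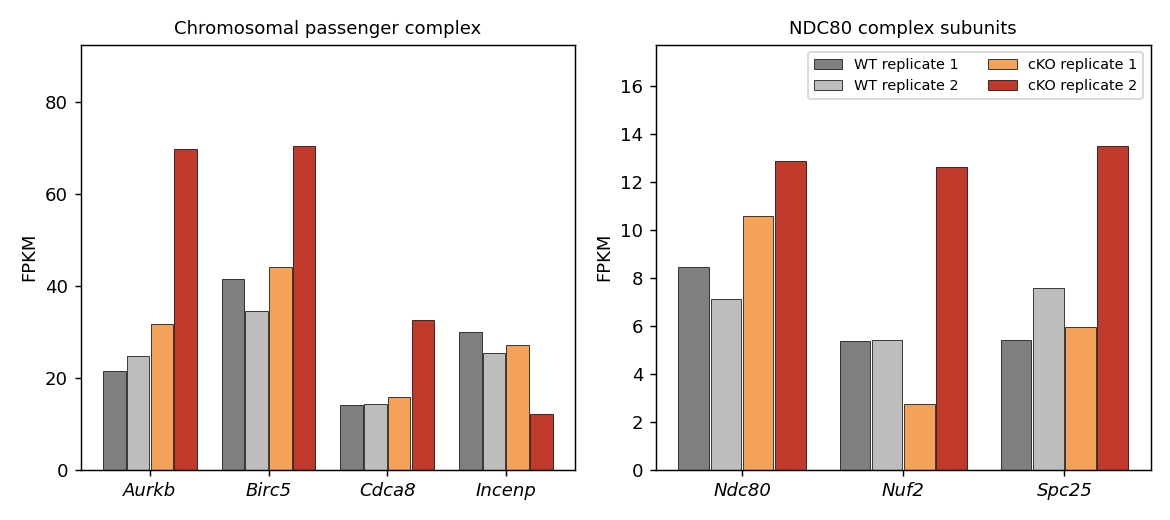
FPKM of the subunits of the chromosomal passenger complex and of 3 subunits of the NDC80 complex, 1 bar per library, on axes that start at 0. In cKO replicate 2, Aurkb, Birc5 and Cdca8 have the tallest bars and Incenp the shortest; Nuf2 is lowest in cKO replicate 1 at 2.76 FPKM and highest in cKO replicate 2 at 12.6 FPKM.

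Of the 6 kinetochore and centromere genes, 6 were above both WT libraries in cKO replicate 2 and 2 were in cKO replicate 1, and their median log2 fold change of 0.54 turned to -0.15 without replicate 2. Cenpe, a motor of the kinetochore, was at 68.2 and 99.0 CPM in WT and at 128.0 and 222.8 CPM in cKO. Its log2 fold change was 1.07 (SE 0.37, edgeR unadjusted p = 0.0356), and 0.61 without cKO replicate 2. Ndc80, which forms the microtubule-binding arm of the kinetochore with NUF2, was at 18.8 and 16.0 CPM in WT and at 23.2 and 27.7 CPM in cKO, the other gene of this role whose groups did not overlap. Cenpf, a protein of the outer kinetochore, was at 49.2 and 53.9 CPM in WT and at 46.9 and 119.1 CPM in cKO. Spc25, at the inner end of the NDC80 complex, was at 17.5 and 24.7 CPM in WT and at 18.9 and 42.0 CPM in cKO. The partner of Ndc80, Nuf2, varied most between the cKO libraries, which were 4.48-fold apart at 17.5 and 78.1 CPM, while WT was at 34.3 and 35.01 CPM. Its fitted log2 fold change of 0.46 became -0.99 without replicate 2, and in cKO replicate 1 it lay below WT while Ndc80 lay above. Cenpa, the histone H3 variant that marks centromeres, was at 75.4 and 68.5 CPM in WT and at 53.0 and 78.7 CPM in cKO.

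Among the spindle genes, Hmmr, a microtubule-associated protein of spindle poles that also binds hyaluronan, had nearly equal WT values of 40.94 and 40.88 CPM and was at 58.4 and 86.5 CPM in cKO. Its log2 fold change was 0.82 (SE 0.31, edgeR unadjusted p = 0.0475), and 0.51 without cKO replicate 2. Nusap1, which bundles spindle microtubules, was at 92.2 and 88.7 CPM in WT and at 136.5 and 98.0 CPM in cKO, higher in replicate 1 than in replicate 2. Exons of Nusap1 overlap Oip5, a kinetochore gene, on the opposite strand, and the labels do not say whether the counting used strand. The same holds for Ccna2 with Exosc9, Plk1 with Gm44985, Cdc20 with Elovl1, Ube2c with Tnnc2 and Cdca8 with 9930104L06Rik. Tpx2, the activator of Aurora A on the spindle, was at 96.5 and 87.0 CPM in WT and at 60.9 and 96.1 CPM in cKO, so only cKO replicate 1 left the WT range.

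Of the cytokinesis genes, Prc1, which crosslinks the microtubules of the central spindle, was at 32.4 and 36.7 CPM in WT and at 54.5 and 83.1 CPM in cKO. Its log2 fold change was 0.99 (SE 0.33, edgeR unadjusted p = 0.0328), and 0.66 without cKO replicate 2. Exons of Prc1 likewise overlap Rccd1 on the opposite strand. Anln, an actin-binding protein of the cleavage furrow, was at 38.7 and 37.3 CPM in WT and at 47.5 and 59.5 CPM in cKO, again with both cKO libraries above WT. Ect2 activates RhoA at the division plane and Racgap1 encodes its partner in the central spindle. Ect2 was at 30.5 and 34.95 CPM in WT and at 25.96 and 46.7 CPM in cKO, on either side of WT. Racgap1 had the fitted fold change nearest to 0 of the 35 members, at 106.4 and 95.3 CPM in WT and at 96.2 and 103.3 CPM in cKO (log2 fold change -0.02, SE 0.21, and -0.07 without cKO replicate 2).

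Genes of chromosome structure included the smallest p among all members. Hmgb2, a chromatin protein abundant in dividing cells, was at 104.9 and 124.5 CPM in WT and at 171.2 and 210.7 CPM in cKO. Its log2 fold change was 0.74 (SE 0.22, edgeR unadjusted p = 0.0214) and remained at 0.58 without cKO replicate 2. Top2a, the topoisomerase that untangles sister chromatids, was at 146.5 and 150.3 CPM in WT and at 180.5 and 235.0 CPM in cKO. Both genes were thus above WT in each cKO library. Mki67, the most used marker of dividing cells, was not: WT was at 117.7 and 90.9 CPM and cKO at 74.0 and 192.6 CPM. Its fitted log2 fold change of 0.35 became -0.50 without replicate 2. Cdca3, a regulator of mitotic entry, was at 59.1 and 51.1 CPM in WT and at 76.2 and 132.8 CPM in cKO (log2 fold change 0.92, SE 0.35, and 0.47 without cKO replicate 2). Cdca2, which brings a phosphatase to chromosomes at mitotic exit, was at 59.5 and 62.2 CPM in WT and at 60.9 and 77.8 CPM in cKO.

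**Figure D4:**
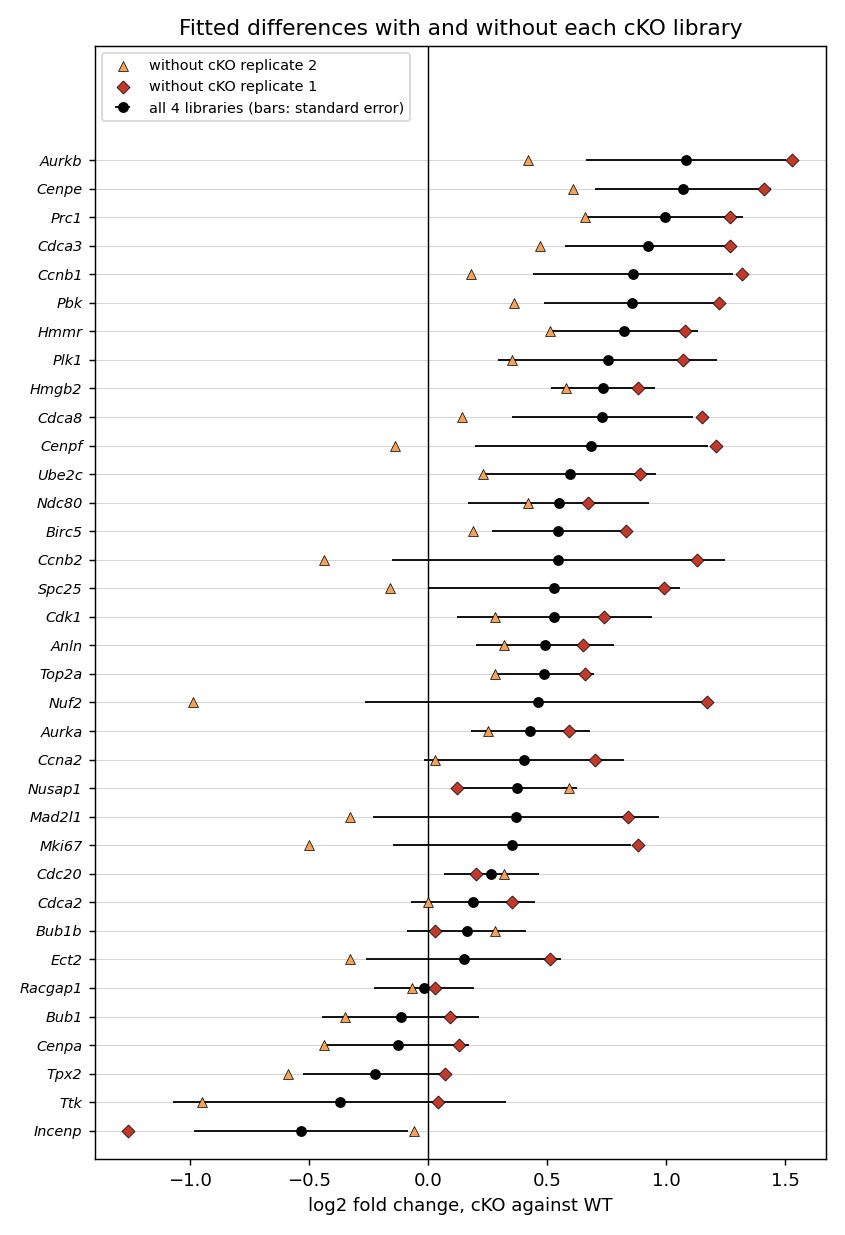
Log2 fold change of cKO against WT for each member, ordered by the fit on all 4 libraries (black, bars show the standard error), with the value without cKO replicate 2 (triangles) and without cKO replicate 1 (diamonds). Most triangles lie nearer to 0 than the diamonds, and 13 of the 35 triangles are below 0.

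Per length, the members spanned a wide range of levels in WT. Cdc20 was the highest at 51.0 ± 2.09 FPKM (SD, n = 2), followed by Birc5 at 37.9 ± 4.84 FPKM and Hmgb2 at 37.6 ± 4.25 FPKM, and these last 2 did not differ beyond their spread. Ttk at 2.17 ± 0.724 FPKM and Mad2l1 at 1.51 ± 0.269 FPKM (SD, n = 2) were the lowest and also within their spread of each other. By mean CPM in WT, Ccnb2 and Ttk were the lowest at 10.7 and 10.8 CPM, with Mad2l1 at 12.9 CPM. The order thus depends on the gene lengths behind the FPKM. In cKO the order at the top was Hmgb2 at 64.5 ± 10.4 FPKM, Cdc20 at 63.1 ± 2.76 FPKM and Birc5 at 57.2 ± 18.7 FPKM, with no difference beyond the spread.

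The other cell cycle genes were read from lists that hold no member, and no gene of these lists passed edgeR or DESeq2 over all genes tested. Of the 21 regulators of G2 and M, 15 were fitted higher and 6 lower, with a median log2 fold change of 0.28, which was 0.06 with 11 of 21 higher without cKO replicate 2. Pttg1, which encodes securin, was at 22.3 and 16.0 CPM in WT and at 23.5 and 53.5 CPM in cKO, and Lin54, a DNA-binding subunit of MuvB, was at 4.72 and 10.2 CPM in WT and at 9.11 and 37.1 CPM in cKO. In both genes cKO replicate 1 lay within or close to the WT range. Of 28 further kinetochore and checkpoint genes, 18 were higher and 10 lower, with a median of 0.23 that was 0.02 with 14 higher without cKO replicate 2. Of these, Sgo1, the protector of centromeric cohesion, was at 11.9 and 9.56 CPM in WT and at 20.1 and 19.4 CPM in cKO. Cenpi, a subunit of the inner kinetochore, was at 4.27 and 10.7 CPM in WT and at 12.2 and 40.9 CPM in cKO.

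Condensin and cohesin genes numbered 10 higher and 3 lower of 13, with a median of 0.23 (0.14 and 8 higher without cKO replicate 2). Ncapd3, a subunit of condensin II, was at 55.3 and 43.5 CPM in WT and at 99.2 and 108.1 CPM in cKO (log2 fold change 1.07, SE 0.25), and 1.01 in the fit that leaves out cKO replicate 2. Smc4, a core subunit of both condensins, was at 65.8 and 50.2 CPM in WT and at 75.5 and 95.6 CPM in cKO. Further spindle and cytokinesis genes had a median of 0.32 over 18 genes, 12 of them higher (0.11 and 10 higher without cKO replicate 2). Fam83d, a spindle protein, was at 4.46 and 6.96 CPM in WT and at 13.8 and 18.1 CPM in cKO, and Arhgap11a was at 40.2 and 71.4 CPM in WT and at 87.4 and 90.3 CPM in cKO.

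Core subunits of the anaphase-promoting complex had a median of -0.03 over 12 genes, 6 higher and 6 lower (-0.17 and 3 higher without cKO replicate 2). Cdc16 of this list was at 96.9 and 100.8 CPM in WT and at 62.5 and 47.8 CPM in cKO (log2 fold change -0.84, SE 0.25), and Anapc7 was at 20.9 and 22.7 CPM in WT and at 11.6 and 13.5 CPM in cKO. Both lay below WT in both cKO libraries while their partners Cdc20 and Ube2c lay above. This did not hold for the list: 3 of the 12 core genes lay below WT in both cKO libraries (20.0% of all genes tested). As a sum, the 12 core genes were at 876.1 and 975.8 CPM in WT and at 821.3 and 1082 CPM in cKO, on either side of WT. G1 cyclins and kinases had a median of -0.22 over 8 genes, 3 of them higher, which was 0.00 with 4 higher without cKO replicate 2. Their summed level was 734.1 and 731.9 CPM in WT against 761.4 and 601.2 CPM in cKO. Ccnd1, the cyclin that links growth signals to G1, was at 139.5 and 128.3 CPM in WT and at 184.8 and 185.1 CPM in cKO, and Cdk2 was at 83.3 and 81.0 CPM in WT and at 64.3 and 53.1 CPM in cKO. Inhibitors of cyclin-dependent kinases and pocket proteins had a median of 0.43 over the 8 genes tested of 10, with 6 higher. This median turned to -0.08 with 4 higher without cKO replicate 2, and was 0.75 without cKO replicate 1. Cdkn1a, the p21 inhibitor, was at 88.1 and 93.7 CPM in WT and at 132.0 and 123.5 CPM in cKO, and Cdkn2d was at 35.8 and 23.1 CPM in WT and at 32.6 and 86.5 CPM in cKO.

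Genes of DNA replication had a median of 0.09 on the log2 scale over 22 genes, 14 higher and 8 lower (0.06 and 12 higher without cKO replicate 2). Mcm5, a subunit of the replicative helicase, was at 108.5 and 112.1 CPM in WT and at 147.4 and 148.7 CPM in cKO. As a sum, the 22 replication genes were at 1769 and 1573 CPM in WT and at 1655 and 1821 CPM in cKO, so the cKO libraries were at 0.990 and 1.09 times the WT mean. The 35 mitotic genes were thus at 1.16 and 1.31 times the replication sum in WT, at 1.39 times in cKO replicate 1 and at 1.89 times in cKO replicate 2. The difference between these lists was not tested.

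**Figure D5:**
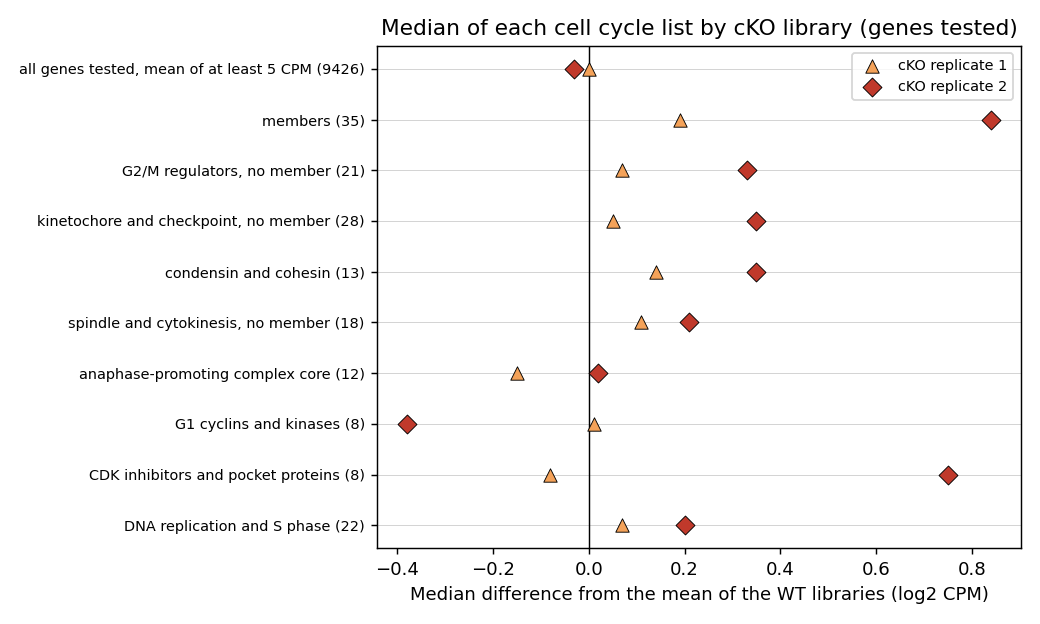
Median difference of each cKO library from the mean of the WT libraries (log2 CPM) over the genes of each cell cycle list, with the number of genes tested in brackets; triangles are cKO replicate 1 and diamonds cKO replicate 2. The members stand at 0.19 and 0.84, DNA replication at 0.07 and 0.20, and G1 cyclins and kinases at 0.01 and -0.38.

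Markers of several other cell types were at their highest in the second cKO library. The 12 neutrophil and monocyte markers summed to 34.1 and 13.8 CPM in WT and to 25.3 and 147.1 CPM in cKO. In cKO replicate 2, Ltf and Ngp, granule genes of the neutrophil lineage, were at 42.1 and 41.7 CPM. Elane and Mpo, other granule genes of this lineage, were at 0 in WT replicate 2 and in both cKO libraries. In WT replicate 1 they were at 7.33 and 8.23 CPM. Fewer genes had a count in cKO replicate 2 (12787) than in WT (14840 and 15899) or cKO replicate 1 (15491), which bears on values of 0 there. The 10 astrocyte markers summed to 225.6 and 183.4 CPM in WT and to 239.3 and 525.1 CPM in cKO, with S100b at 0 in cKO replicate 2 and Fgfr3 at 0 in WT replicate 2. Markers of neural progenitors and neuroblasts (7 in the table, 6 with counts) summed to 19.0 and 29.3 CPM in WT and to 28.8 and 61.1 CPM in cKO, with Dcx and Stmn2 at 0 in cKO replicate 2. The sum of 8 oligodendrocyte precursor markers, 7 of them with counts, was 32.3 and 45.1 CPM in WT and 67.9 and 27.1 CPM in cKO, and Sox10 was at 0 in all 4 libraries. The part of such cells in the mitotic counts was not tested.

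The authors' deposited tables compare 1 cKO library with 1 WT library at a time and call genes that differ at least 2-fold at a p-value under 0.05. The authors' deposited tables of cKO replicate 1 called 0 members higher against either WT library, where 20.3% and 17.2% of the genes in those tables were called higher, and called Ttk lower against WT replicate 1 (15.8% of genes). In the authors' deposited tables of cKO replicate 2, 14 members were called higher against WT replicate 1 (18.1% of genes) and 15 against WT replicate 2 (17.1%). For Aurkb the authors' deposited tables give 1.47-fold and 1.28-fold for cKO replicate 1, and 3.24-fold and 2.81-fold for cKO replicate 2, against WT replicates 1 and 2. In the authors' deposited tables of cKO replicate 2, Incenp was the 1 member called lower, at 0.402-fold and 0.474-fold (28.7% and 31.7% of genes were called lower). These tables share libraries and are not independent of each other.

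Grouped by promoter, the 20 members with both motifs in their window had a median log2 fold change of 0.53, and the 9 members with an entry but without that pair had 0.49; without cKO replicate 2 these were 0.24 and 0.19. Over the genes tested with edgeR, the 575 genes with both motifs had a median of 0.01 and the other 8816 had -0.04. Among members as among all genes tested, the medians with and without the motif pair lay close together, and no test was made of them.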

How the data were processed

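RNA-seq of 4 libraries was used, 2 per genotype. Tools listed in the submitters' processing notes are HTSeq 0.6.0, TopHat2 2.0.12 and Bowtie2 2.2.3, and the build listed is mm9. Gene positions in the authors' FPKM table matched GENCODE M21 (GRCm38) for 92.1% of 21008 shared genes, so they are not mm9 positions. They matched for 34 of the 35 members, and Incenp was the member whose position differed. That deposited table gives FPKM for 21044 genes. A further 4 deposited tables of library pairs, per the file headers, hold a read count, a normalized signal, a fold change (a ratio), its log2 and p-values. The labels do not describe the test used in them.

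The 4 tables gave counts for 18459 genes, and 2585 genes without counts were left out. In 4315 of 73836 cells the count was absent and was computed from FPKM (100.0% whole within 1e-06, at most 4). edgeR 4.0.16 in R 4.3.3 was fitted with TMM, filterByExpr and the quasi-likelihood test, with Benjamini-Hochberg adjustment over 13086 genes, and SE were taken from the F statistic. Pairwise log2 CPM used a prior count of 2. Alternatives were DESeq2 1.42.0, limma 3.58.1 on log2(FPKM + 1) and log2(FPKM + 0.1), other scalings and filters, a replicate block and leaving out each library. The scripts were tested on simulated data. Exons of 8 members overlap those of another gene, for 7 on the opposite strand alone, and 2 members (Ccnb1 and Pbk) have a copy at 95% identity or more over at least 50% of the transcript.

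The members and the lists were chosen with earlier results of these data known. Values in every library are given for up to 4 members per role by the smallest p, to which Nuf2 and Cenpa were added with their values known. From each other list come 2 genes by the smallest p, with mean CPM of 5 or more. For DNA replication, 1 of the 2 is not reported here.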

Additional observations from a re-analysis of the deposited data

How the results depend on the processing

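With 2 libraries per group, no member passed edgeR, so the values here describe sizes and directions. The count of genes past the threshold stayed at 0 with 2 other scalings, 2 other filters, limma with 2 pseudocounts or no filter, and was 52 with DESeq2 and 0 to 748 on leaving out each library, the 748 being without cKO replicate 1. The members' median log2 fold change was 0.44 to 0.54 in the fits that keep all 4 libraries and 0.19 to 0.83 on leaving out each library. Deviations of libraries with the same number had a correlation of -0.0229 over genes, and the labels give the number no shared origin. With the replicate block 0 genes passed and the median was 0.44. Of the 35 members, 23 kept their direction under every alternative run, 22 of them higher. The direction turned on leaving out a library for Ccnb2 (-0.44 to 1.13), Bub1 (-0.35 to 0.088), Ttk (-0.95 to 0.04), Mad2l1 (-0.33 to 0.84), Nuf2 (-0.99 to 1.17), Spc25 (-0.16 to 0.99), Cenpa (-0.44 to 0.13), Cenpf (-0.14 to 1.21), Tpx2 (-0.59 to 0.067), Ect2 (-0.33 to 0.51), Mki67 (-0.50 to 0.88) and Racgap1 (-0.10 to 0.056). Racgap1 also turned with total counts only (0.027) and with limma (0.025, 0.027 and 0.025). The cause of these turns was not tested.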
